A study of Mus musculus with 8 samples.

Results

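The 9 genes described here form the core of the mammalian circadian clock: the activators Arntl, Clock and Npas2, and the repressors Per1, Per2, Per3, Cry1, Cry2 and Ciart. They were chosen by name, with earlier results of these data known, as the rows of the deposited count table whose Ensembl identifiers carry these symbols in a mouse annotation of the same build. All 9 were found among 52636 listed genes, and all 9 were among the 16107 that passed the filter on low counts. Colon RNA was sequenced from wild-type female C57BL/6 mice that were 6 weeks old, germ-free by the series title, and housed in gnotobiotic isolators. The groups were C. tropicalis MYA-3404 for 30 days (2 libraries), C. albicans SC5314 for 30 days (3 libraries) and control, also labelled 30 days (3 libraries). Gene positions below are on GRCm38 from GENCODE M21. The yeasts were given by oral gavage. Each colonized library is labelled with a single species, and the labels do not say what the control mice were given. Nothing in the labels says that the 8 libraries come from different mice, and the p-values therefore rest on a spread between libraries that could be partly technical. No clock hour of collection is given for any library, so the part of the hour in the group differences could not be tested. Below, rose and fell mean only higher and lower than control.

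The clock is a feedback loop of transcription. BMAL1, the product of Arntl, pairs with CLOCK or with its close relative NPAS2 and binds E-box elements near the Per, Cry and Ciart genes, which raises their transcription. PER and CRY proteins then enter the nucleus and inhibit the BMAL1 pair, and CIART, also called CHRONO, represses it as well. A second loop sets Arntl itself: REV-ERB receptors repress it and ROR receptors activate it through shared elements called RREs. As a result Arntl and Per transcripts normally peak at opposite times of day, and the colon has a clock of its own that feeding times can set.

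Promoter windows of the clock genes were searched for such elements, and stretches with matches from Ciart, Per1, Cry1, Per3 and Arntl are given here. The sequences are from RefSeq on GRCm38.p6. The table held 12 windows for 8 of the 9 genes (all but Per2), each reaching from 250 bases before an annotated start to 50 after it. The motifs searched on both strands were the E-box CACGTG, the weaker E′-box CACGTT, the D-box TTANGTAA, the RRE core GTAGGTNA and the cyclic AMP element TGACGTCA, and no match overlapped another. In the sequences below, all 5′ to 3′ on the gene's strand, capitals mark the matches.
Ciart, chr3:95882229-95882478, minus strand: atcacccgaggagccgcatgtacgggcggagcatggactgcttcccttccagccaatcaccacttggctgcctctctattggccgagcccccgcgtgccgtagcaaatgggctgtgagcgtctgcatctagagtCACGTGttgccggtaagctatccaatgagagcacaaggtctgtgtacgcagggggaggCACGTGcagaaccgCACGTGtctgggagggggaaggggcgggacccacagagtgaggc
Per1, chr11:69098699-69098948, plus strand: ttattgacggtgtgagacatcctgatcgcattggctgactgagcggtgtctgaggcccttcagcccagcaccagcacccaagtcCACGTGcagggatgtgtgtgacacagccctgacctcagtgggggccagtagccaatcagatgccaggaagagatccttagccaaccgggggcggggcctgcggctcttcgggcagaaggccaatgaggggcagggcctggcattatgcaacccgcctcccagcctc
Cry1, chr10:85185055-85185304, minus strand: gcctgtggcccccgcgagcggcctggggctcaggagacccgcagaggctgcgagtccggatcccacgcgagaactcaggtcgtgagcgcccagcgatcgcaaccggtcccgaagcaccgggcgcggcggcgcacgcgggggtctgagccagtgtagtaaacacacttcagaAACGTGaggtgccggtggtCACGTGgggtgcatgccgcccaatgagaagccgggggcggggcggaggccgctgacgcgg
Per3, chr4:151044666-151044915, minus strand: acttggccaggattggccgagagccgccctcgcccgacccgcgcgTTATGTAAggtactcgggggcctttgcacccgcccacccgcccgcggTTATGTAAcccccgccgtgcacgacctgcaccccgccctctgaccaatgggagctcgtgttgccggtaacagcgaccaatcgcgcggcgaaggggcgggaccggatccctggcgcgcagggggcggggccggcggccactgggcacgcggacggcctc
Arntl site 1, chr7:113207495-113207520, plus strand: ggtcggaaaGTAGGTTAgtggtgcga
Arntl site 2, chr7:113207531-113207556, plus strand: aggcagaaaGTAGGTCAgggacggag
Ciart held 3 E-boxes, beginning 116, 58 and 44 bases before its start. Per1 held 1 E-box in the window of its upstream start, and Cry1 an E-box beginning 60 and an E′-box beginning 79 bases before its start. Per3 held no E-box but 2 D-boxes, the element bound by DBP, TEF and HLF. The Arntl sites are 2 RRE cores, the first beginning 7 bases before the later of its 2 annotated starts. The second begins at base 30, with that start counted as base 1. Cry2 held 1 E′-box. The windows of Clock and Npas2 and the other Per1 window held none of the 5 motifs, which says only that these letters are not in those stretches. Of all 32851 RefSeq windows of this length, 7.15% held the E-box, 4.68% the E′-box, 2.32% the D-box, 2.14% the RRE core and 1.79% the cyclic AMP element, which none of the 12 windows searched held. A match is a string of letters, not a measured binding site.

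**Figure D1:**
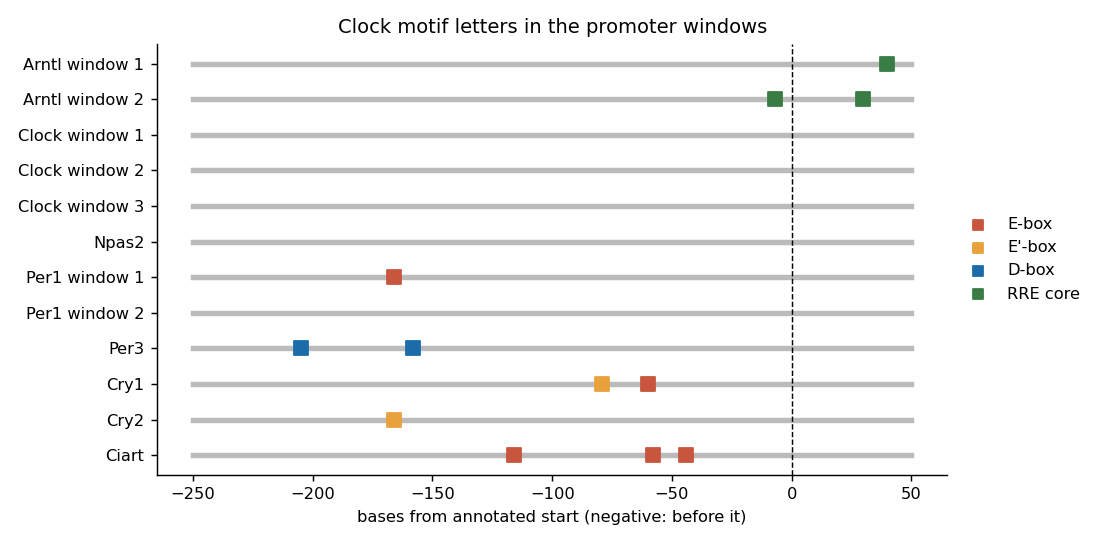
Matches to the clock motifs in the 12 RefSeq promoter windows of 8 genes, by distance in bases from each annotated start (dashed line). Squares mark where a match begins and grey bars the searched window. Ciart held 3 E-boxes, Per3 2 D-boxes and Arntl the only RRE cores.

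In the series as a whole, libraries held 16195376 to 19761098 counts, and a count of 0 would allow up to 0.158 to 0.183 CPM (counts scaled to the size of the library; counting error only). The lowest count of any clock gene in any library was 54, for Ciart in control 3, and the highest 4533, for Per2 in C. tropicalis 1. Along the main axis of variation over all genes, with 48.7% of the variance, control 3 stood at 43.3, near C. tropicalis 1 and 2 at 53.6 and 46.4, while control 1 stood at -39.9. All 10 colon epithelial markers were detected, with sums of 16751 to 19515 CPM in C. tropicalis, 16754 to 21243 CPM in C. albicans and 13656 to 16780 CPM in control colon. Single markers in that list were far less alike: Cdx2 was at 26.3 to 28.6 CPM in C. tropicalis, 224 to 470.1 CPM in C. albicans and 26.9 to 339 CPM in control colon, and Car1 at 2232 to 2255 CPM in C. tropicalis, 180 to 432 CPM in C. albicans and 243 to 1602 CPM in control colon. The sums of 10 smooth muscle markers, none of them at 0, were 3605 to 4611 CPM in C. tropicalis, 9417 to 27216 CPM in C. albicans and 6443 to 12575 CPM in control colon. C. tropicalis colon was thus below both other groups in muscle RNA, while C. albicans and control colon overlapped, and in bulk RNA fewer cells of a type and less RNA per cell cannot be told apart. Summed markers of 4 other cell types were also lowest in C. tropicalis colon, with no overlap of the sums. Not every single marker was below all controls there. Of those tested, 7 of 8 were for neurons and glia and 3 of 5 for fibroblasts. For endothelium it was 2 of 4 and for adipocytes 1 of 3, where 16.5% of all tested genes were lower without overlap. Enteric neurons and glia summed to 34.2 to 52.9 CPM in C. tropicalis, 75.5 to 178 CPM in C. albicans and 66.8 to 90.3 CPM in control colon, and fibroblasts to 836 to 992, 1220.5 to 1964 and 1063 to 1369 CPM in the same groups. Endothelium summed to 80.2 to 88.6 CPM in C. tropicalis, 114 to 134 CPM in C. albicans and 95.7 to 118 CPM in control colon, and adipocytes to 1.54 to 7.42, 21.6 to 63.8 and 8.57 to 59.1 CPM. Small intestine markers, with Defa24 at 0 in all libraries, had the lowest sum with C. albicans. They summed to 73.2 to 88.2 CPM in C. tropicalis, 23.4 to 40.0 CPM in C. albicans and 51.1 to 73.8 CPM in control colon. Rbp2 held most of this sum, at 68.0 to 77.3, 21.6 to 37.9 and 48.5 to 70.1 CPM in the same groups. Fabp6 was also lowest with C. albicans, while Lct was higher there (0.244 to 0.281 CPM) than in control colon (0.0596 to 0.228 CPM). Apart from the smooth muscle score, the part of these shifts in the clock values was not tested. Some clock results are also given from a fit with the mean log2 level of the muscle markers as a covariate. They include the calls that this covariate changed and some estimates where no call changed. This score was -1.25 and -0.996 in C. tropicalis and -0.666 to 0.522 in control colon. With no overlap, C. tropicalis and the score can hardly be told apart in the adjusted comparison with control.

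With C. albicans, the fitted estimates were below control for 3 of 3 activators and above control for 6 of 6 repressors. With C. tropicalis, they were below control for 2 of 3 activators and above it for 6 of 6 repressors. Of all 16107 tested genes, 7762 were above and 8345 below control with C. albicans, and 7720 and 8387 with C. tropicalis. For C. albicans, the 95% intervals of Cry1 (-0.13 to 0.85) and Cry2 (-0.03 to 0.64) included 0. For C. tropicalis, that of Clock did (-0.12 to 0.55). In C. albicans against control, by edgeR's quasi-likelihood test with Benjamini-Hochberg adjustment over all tested genes, 4 of the 9 genes passed at 0.05: Arntl fell, and Per1, Per2 and Ciart rose. Of all tested genes 0.0435% passed (0.0373% higher and 0.00621% lower). The groups did not overlap for 8 of the 9 (5 higher and 3 lower), as for 19.4% of all tested genes (9.82% higher and 9.57% lower). An unadjusted p under 0.05 was reached by 7 of the 9 and by 15.4% of all. DESeq2 called 6 of the 9, adding Npas2 and Per3, and 3.09% of the genes it tested. With C. tropicalis, Per2 alone of the 9 passed and rose, where 0.0310% of all tested genes passed (0.0248% higher and 0.00621% lower). The groups did not overlap for 9 of the 9 (7 higher and 2 lower), as for 32.5% of all tested genes (16.0% higher and 16.5% lower). An unadjusted p under 0.05 was reached by 8 of the 9 and by 15.4% of all. DESeq2 called 7 of the 9, all but Clock and Cry2, and 2.46% of the genes it tested. The 2 colonization comparisons share the 3 control libraries, so their likeness is not independent evidence.

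**Figure D2:**
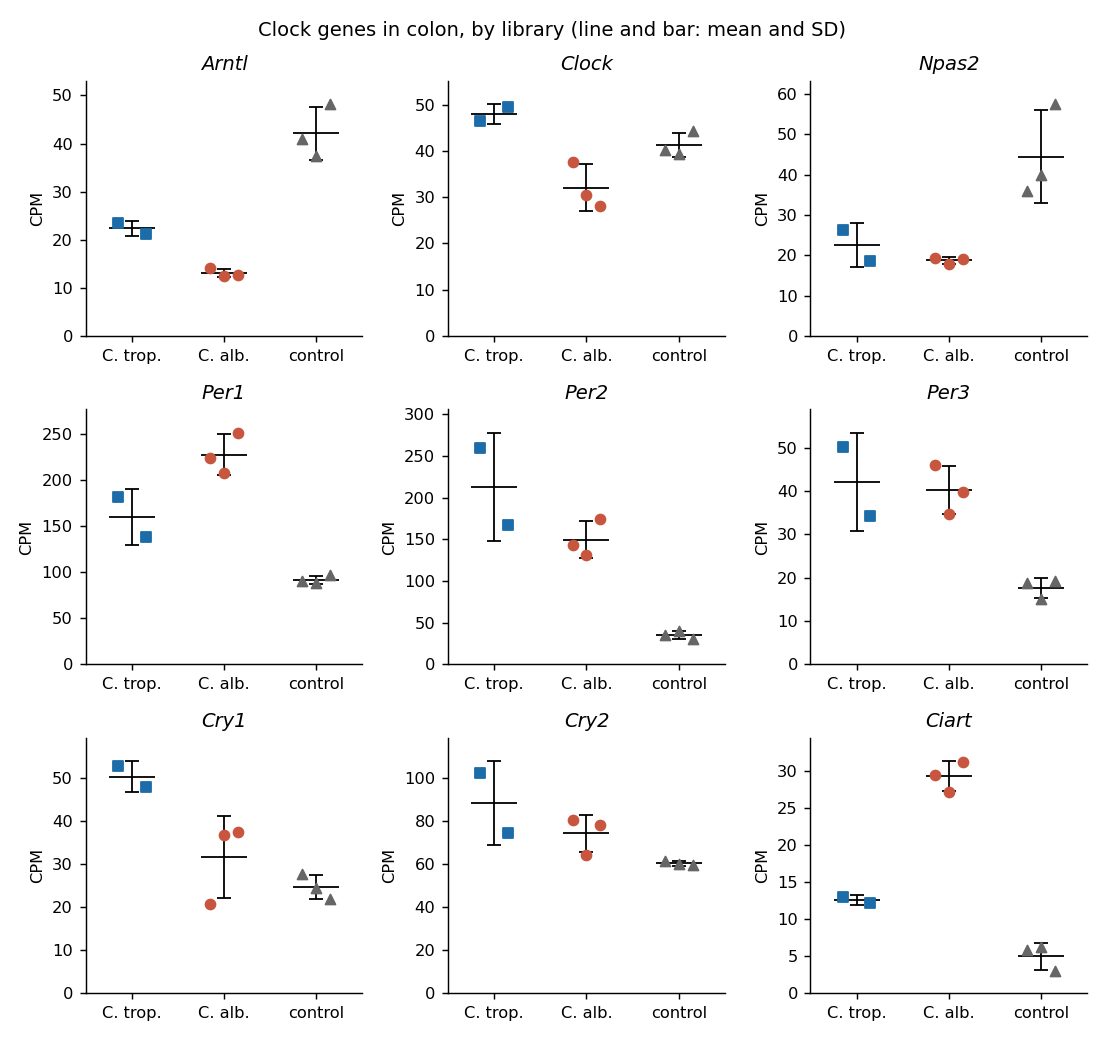
Expression of the 9 clock genes in each colon library, in CPM on axes that start at 0 (squares C. tropicalis, n = 2; circles C. albicans, n = 3; triangles control, n = 3; line and bar, mean and SD). Arntl and Npas2 were lower and Per1, Per2, Per3 and Ciart higher in every colonized library than in any control.

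Arntl (ENSMUSG00000055116, chr7:113207465-113314126, plus strand) was the gene with the smallest p of all tested genes in the C. albicans comparison. It stood at 23.5 and 21.3 CPM in C. tropicalis, at 14.1, 12.5 and 12.6 CPM in C. albicans, and at 40.9, 37.4 and 48.2 CPM in control colon. The groups formed 3 steps with no overlap, lowest with C. albicans and highest in controls. The log2 fold change was -1.69 ± 0.14 (SE) for C. albicans against control, or 0.311-fold (adjusted p = 0.00941), and -0.91 ± 0.15, or 0.531-fold, for C. tropicalis against control (adjusted p = 0.112). Without C. albicans 3 the C. albicans call was lost (adjusted p = 0.104), and without control 3 the C. tropicalis difference passed (log2 -0.81, adjusted p = 0.0456). In the annotation, 33 of the 7523 exon bases of Arntl overlap an antisense gene, Gm45355, which had 1 count in the 8 libraries.

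Npas2 (ENSMUSG00000026077, chr1:39193731-39363236, plus strand) lay on the same side as Arntl without passing. NPAS2 can take the place of CLOCK as the partner of BMAL1. It stood at 26.4 and 18.6 CPM in C. tropicalis, at 19.4, 17.8 and 19.0 CPM in C. albicans and at 35.9, 40.0 and 57.5 CPM in control colon. Every colonized library lay under every control, and control 3 was the highest. The log2 fold change was -1.25 ± 0.20 for C. albicans (adjusted p = 0.0776) and -0.98 ± 0.23 for C. tropicalis (adjusted p = 0.168). Without C. albicans 1 the first of these passed (adjusted p = 0.0498).

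Clock (ENSMUSG00000029238, chr5:76209868-76304792, minus strand) stood on opposite sides of control with the 2 species. CLOCK is the histone acetyltransferase that pairs with BMAL1, and in many tissues its transcript cycles weakly. It stood at 46.4 and 49.5 CPM in C. tropicalis, at 37.7, 30.4 and 28.0 CPM in C. albicans and at 40.3, 39.3 and 44.2 CPM in control colon. The C. tropicalis libraries were above all controls and the C. albicans libraries below them, yet neither difference passed (log2 0.22 ± 0.15, adjusted p = 0.499, for C. tropicalis; -0.36 ± 0.13, adjusted p = 0.274, for C. albicans). The C. tropicalis estimate was 0.03 with adjustment for the smooth muscle score.

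Per2 (ENSMUSG00000055866, chr1:91415982-91459324, minus strand), the period gene whose product limits BMAL1 activity with CRY, had the smallest p of all tested genes in the C. tropicalis comparison. It reached 259 and 167 CPM in C. tropicalis and 143, 131 and 174 CPM in C. albicans, against 35.1, 40.4 and 30.0 CPM in control colon. Every colonized library was far above every control, and the species overlapped. Per2 rose by log2 2.60 ± 0.22 with C. tropicalis (6.06-fold, adjusted p = 0.0134) and by 2.09 ± 0.20 with C. albicans (4.25-fold, adjusted p = 0.0150). The C. tropicalis call was lost without C. tropicalis 1 (log2 2.25, adjusted p = 0.129), control 1 (0.0889) or control 2 (0.147), and with adjustment for the smooth muscle score (log2 2.59, adjusted p = 0.0608). The C. albicans call was lost without C. albicans 3 (adjusted p = 0.104), control 1 (0.0614), control 2 (0.0990) or control 3 (0.0630), with log2 fold changes of 1.99 to 2.22 over the 8 libraries left out in turn.

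Per1 (ENSMUSG00000020893, chr11:69095217-69109960, plus strand), a paralog of Per2 whose transcription also answers quickly to outside signals, had 181 and 139 CPM in C. tropicalis and 223, 208 and 251 CPM in C. albicans, against 90.6, 88.2 and 96.5 CPM in control colon. The C. albicans libraries were the highest and the C. tropicalis libraries in between, and the groups did not overlap. Per1 rose by log2 1.31 ± 0.14 with C. albicans (2.48-fold, adjusted p = 0.0222). The C. tropicalis estimate was 0.80 ± 0.15 (1.74-fold, adjusted p = 0.135). The C. albicans call was lost without C. albicans 3 (adjusted p = 0.154), control 1 (0.0631), control 2 (0.146) or control 3 (0.0696).

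Per3 (ENSMUSG00000028957, chr4:151003652-151044665, minus strand), the period paralog that is least needed for the rhythm, was at 50.1 and 34.2 CPM in C. tropicalis, 46.0, 34.8 and 39.9 CPM in C. albicans and 18.7, 15.01 and 19.1 CPM in control colon. The 2 species overlapped, and all 5 colonized libraries were above the controls. Its log2 fold change was 1.26 ± 0.20 for C. tropicalis (adjusted p = 0.104) and 1.19 ± 0.18 for C. albicans (adjusted p = 0.0711). Neither passed, though the C. tropicalis difference did without control 3 (adjusted p = 0.0389), and the C. albicans difference did without C. albicans 1 (adjusted p = 0.0416) or with adjustment for the smooth muscle score (log2 1.36, adjusted p = 0.0432).

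Ciart (ENSMUSG00000038550, chr3:95878503-95882251, minus strand), which encodes the repressor CHRONO and carries the 3 E-boxes shown above, had the largest estimate of the 9 genes with C. albicans. Its level was 13.0 and 12.1 CPM in C. tropicalis, 29.6, 27.2 and 31.3 CPM in C. albicans and 5.83, 6.25 and 2.90 CPM in control colon. The 3 groups were well apart, with C. tropicalis between the others, and control 3 was the lowest library. Ciart rose by log2 2.56 ± 0.26 with C. albicans (5.88-fold, adjusted p = 0.0158). The C. tropicalis estimate was 1.33 ± 0.28 (2.52-fold, adjusted p = 0.151), and it passed without control 3 (log2 1.06, adjusted p = 0.0289). The C. albicans call was lost without C. albicans 3 (adjusted p = 0.148), control 1 (0.0566) or control 2 (0.0990).

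The cryptochromes, the stronger inhibitors of the BMAL1 pair, did not pass in either comparison. Cry1 (ENSMUSG00000020038, chr10:85131700-85185064, minus strand) was at 52.9 and 47.8 CPM in C. tropicalis, 20.6, 36.8 and 37.4 CPM in C. albicans and 27.7, 24.3 and 21.9 CPM in control colon. Both C. tropicalis libraries were above every other library, while C. albicans 1 lay below all controls and the other C. albicans libraries above them. The log2 fold change of Cry1 was 1.03 ± 0.24 with C. tropicalis (adjusted p = 0.168) and 0.36 ± 0.22 with C. albicans (adjusted p = 0.436), and without C. albicans 1 the C. albicans estimate was 0.62 (adjusted p = 0.0813). With adjustment for the smooth muscle score the Cry1 estimate was 1.501 with C. tropicalis (adjusted p = 0.106) and 0.0069 with C. albicans (adjusted p = 0.991). Cry2 (ENSMUSG00000068742, chr2:92403646-92434043, minus strand) ranged from 74.3 to 102 CPM in C. tropicalis, from 64.1 to 80.3 CPM in C. albicans and from 59.3 to 61.3 CPM in control colon. Its controls were the tightest group of any of the 9 genes (coefficient of variation 1.75%). Its log2 fold change was 0.55 ± 0.16 with C. tropicalis (adjusted p = 0.228) and 0.30 ± 0.15 with C. albicans (adjusted p = 0.356). Cry2 shares 295 of its 6320 exon bases with an antisense transcript, D930015M05Rik, which had 58 counts in all against 10211 for Cry2.

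**Figure D3:**
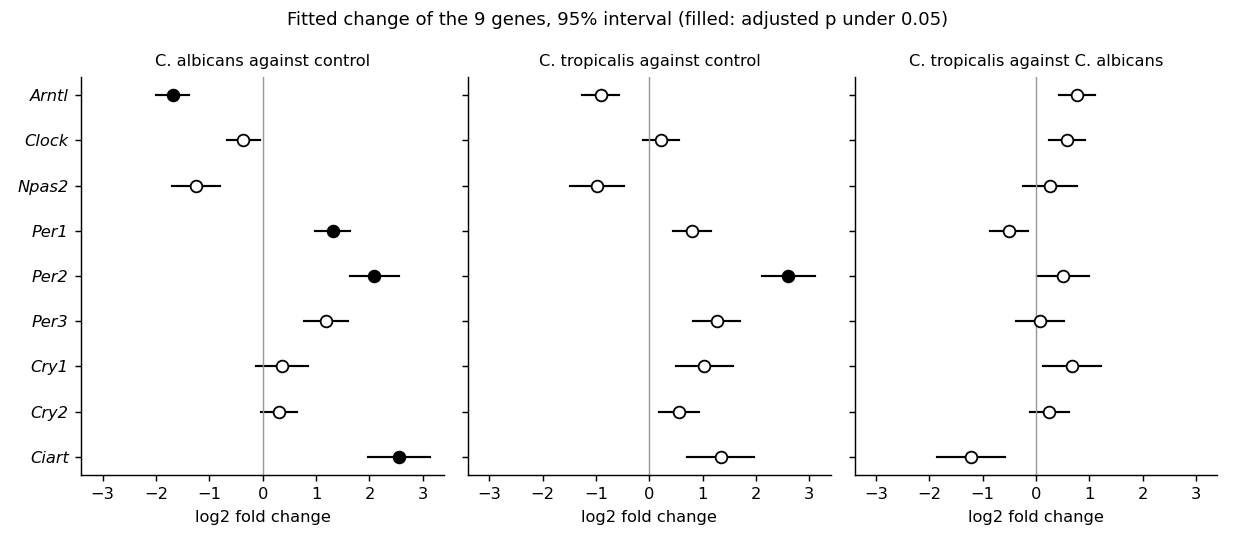
Fitted log2 fold changes of the 9 genes with their 95% intervals in each comparison, from 1 edgeR fit of the 8 libraries (filled points have an adjusted p under 0.05). Of the repressors, Per1, Per2 and Ciart passed with C. albicans and Per2 with C. tropicalis; no gene passed between the species.

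Set directly against each other, the species did not differ past the threshold in any of the 9 genes, nor in any of the 16107 tested genes with edgeR (0% called). At an unadjusted p under 0.05 there were 3744 genes (23.2%), among them 6 of the 9, and limma-voom called 0 while DESeq2 called 1753 of 15971 genes (11.0%), among them 4 clock genes: Arntl, Clock, Per1 and Ciart. The estimates were far from uniform. Arntl was 1.71-fold higher in C. tropicalis than in C. albicans (log2 0.77 ± 0.15, 95% interval 0.44 to 1.11, adjusted p = 0.0646), and Clock 1.49-fold (0.58 ± 0.15, interval 0.24 to 0.92, adjusted p = 0.0745). Ciart had the opposite sign, at 0.429-fold (-1.22 ± 0.28, interval -1.86 to -0.59, adjusted p = 0.0669), as did Per1 at 0.702-fold (-0.51 ± 0.16, interval -0.87 to -0.15, adjusted p = 0.106).

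The remaining genes leaned the other way from Ciart and Per1 or not at all. Cry1 was at log2 0.67 ± 0.24 for C. tropicalis against C. albicans (interval 0.13 to 1.21, adjusted p = 0.139) and Per2 at 0.51 ± 0.22 (0.02 to 0.997, adjusted p = 0.197). For Per3 (-0.38 to 0.52), Npas2 (-0.24 to 0.77) and Cry2 (-0.12 to 0.62) the interval included 0, and the data neither show a difference nor exclude one within those bounds. The groups did not overlap for 5 of the 9 genes (3 higher and 2 lower), near the 45.9% of all tested genes (23.4% higher and 22.4% lower). All 10 smooth muscle markers were lower in every C. tropicalis library than in any C. albicans library. Their score was -1.25 and -0.996 in C. tropicalis and 0.023, 1.51 and 0.758 in C. albicans. Species and score can therefore hardly be told apart in a fit that holds both. With the score as a covariate 0 of the 9 genes passed, as without it. In that fit the estimates for Arntl (log2 0.45, adjusted p = 0.766), Clock (0.27, 0.813) and Ciart (-0.82, 0.762) were nearer to 0, and those for Cry1 (1.49, 0.715) and Per1 (-0.705, 0.762) farther from it. Per2 was at 0.49 (adjusted p = 0.797), and Npas2 (-0.35, 0.816), Per3 (-0.36, 0.808) and Cry2 (-0.0205, 0.985) had turned sign. Arntl passed without C. albicans 1 (adjusted p = 0.0311), control 1 (0.0406) or control 3 (0.0268), Ciart without control 1 (0.0441) or control 3 (0.0118), and Clock without C. albicans 1 (0.0286).

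Ratios of 2 genes within a library do not depend on how libraries are scaled, and they are given as a description. Per2 reads outnumbered Arntl reads by 11.0 and 7.85 to 1 in C. tropicalis and by 10.2, 10.45 and 13.8 to 1 in C. albicans, against 0.858, 1.08 and 0.623 to 1 in control colon. By this ratio the species overlapped and the controls stood far below. Ciart reads per Arntl read were 0.555 and 0.569 in C. tropicalis, 2.10, 2.17 and 2.48 in C. albicans and 0.142, 0.167 and 0.0603 in control colon. Here the 3 groups were separate, with C. tropicalis in between.

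The balance among the repressors was read in the same way. Per1 reads per Per2 read were 0.700 and 0.828 in C. tropicalis, 1.56, 1.59 and 1.44 in C. albicans and 2.58, 2.18 and 3.22 in control colon. Per2 thus had more reads than Per1 in C. tropicalis colon only, of the 3 groups. Ciart reads per Per2 read were 0.0503 and 0.0725 in C. tropicalis, 0.206, 0.207 and 0.179 in C. albicans and 0.166, 0.155 and 0.0968 in control colon, again with no overlap but with C. tropicalis lowest. Npas2 reads per Clock read were 0.377 to 0.569 in C. tropicalis, 0.514 to 0.678 in C. albicans and 0.892 to 1.30 in control colon, so that the balance between the alternative partners of BMAL1 was lower in all 5 colonized libraries.

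**Figure D4:**
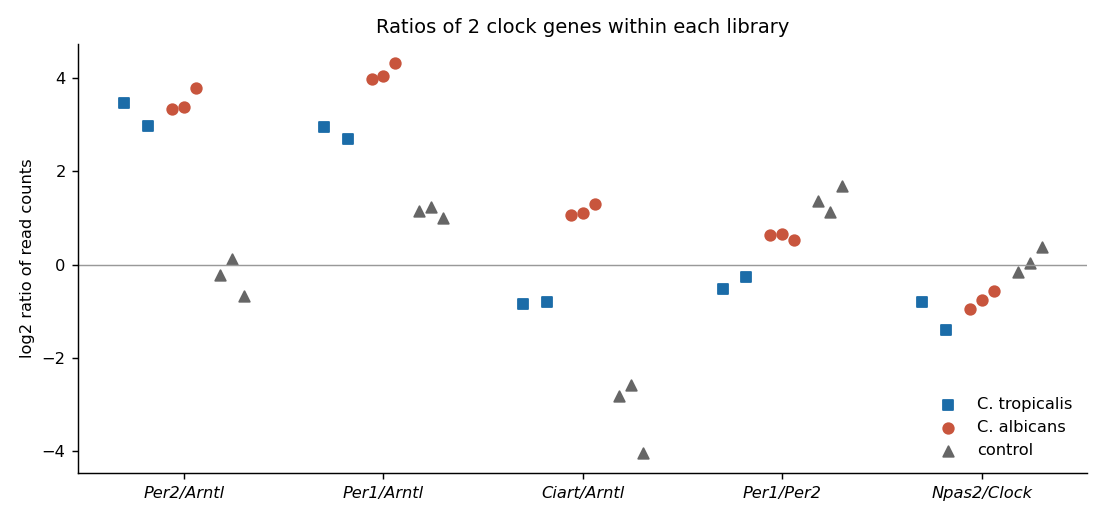
Log2 ratios of the read counts of 2 clock genes within each library (squares C. tropicalis, circles C. albicans, triangles control; 0 means equal reads). The Per2/Arntl ratio overlapped between the species (2.97 to 3.46 in C. tropicalis, 3.34 to 3.79 in C. albicans) and stayed under 0.12 in controls, while Ciart/Arntl and Per1/Per2 separated all 3 groups.

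Divided by exon length, to compare levels between genes, the order of the 9 was not the same in the 3 groups. The length is that of all annotated exons of a gene merged, not of the transcripts present. Ranks between genes therefore depend partly on the annotation. In C. tropicalis colon Per2 led with 36.4 ± 11.1 CPM per kilobase of exon (SD, n = 2), its range overlapping that of Per1 at 28.4 ± 5.36, followed by Cry1 (15.1 ± 1.07), which overlapped Cry2 (13.95 ± 3.10). Ciart (5.56 ± 0.280), Npas2 (4.70 ± 1.14), Per3 (4.39 ± 1.175) and Clock (3.49 ± 0.159) followed, each overlapping the next, and Arntl was last and apart at 2.98 ± 0.204. In C. albicans colon Per1 led with 40.4 ± 3.91 CPM per kilobase (SD, n = 3), apart from Per2 at 25.6 ± 3.81, and Ciart came next at 13.0 ± 0.908. Ciart overlapped Cry2 (11.7 ± 1.39), which overlapped Cry1 (9.46 ± 2.85). Per3 (4.19 ± 0.585) overlapped Npas2 (3.91 ± 0.168), and below them Clock (2.34 ± 0.367) and Arntl (1.74 ± 0.117) were each apart. In control colon Per1 also led, at 16.3 ± 0.754 (SD, n = 3). Below it Cry2 (9.53 ± 0.167), Npas2 (9.28 ± 2.39), Cry1 (7.38 ± 0.867), Per2 (6.01 ± 0.891) and Arntl (5.60 ± 0.731) formed a chain in which each overlapped the next, and Per3 was last at 1.83 ± 0.236, within the range of Ciart at 2.21 ± 0.806. Arntl was thus above Clock (3.01 ± 0.189) in controls and below it in the colonized groups.

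The genes most like Arntl, Per2 and Ciart were ranked among 13283 genes by the root mean square difference of centred log2 CPM over the 8 libraries, where a smaller value means a closer pattern. Nearest to Arntl was Npas2, at 0.28 log2 units against 0.73 for the spread of Arntl around its own mean, followed by Zfp984 (0.34), Hsh2d (0.35), Plekhs1 (0.36) and the claudin gene Cldn8 (0.36). Nearest to Per2 were the chaperone genes Hsph1 (0.42) and Hspa8 (0.45), the deubiquitinase gene Usp2 (0.48), Rbm14 (0.54) and Osgin1 (0.55), against a spread of 1.14 for Per2. Per3 ranked 11, Ciart 32 and Per1 33 in that list, while Cry1 (180) and Cry2 (450) were farther off. Nearest to Ciart were C2cd4a (0.45), Cys1 (0.51), the ephrin receptor gene Epha2 (0.53), Hsph1 (0.53) and Adamts1 (0.55), with Per1 at rank 20 and Per2 at 30.

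Of the genes that surround the core loop, none passed in any comparison. The REV-ERB and ROR list had 4 of its 5 genes tested, with medians of log2 0.16 for C. tropicalis and 0.35 for C. albicans against control, where the median of all tested genes was -0.02 in both. Nr1d1, which encodes the Arntl repressor REV-ERBα, averaged 70.5 ± 30.3 CPM in C. tropicalis (SD, n = 2), 198 ± 45.3 CPM in C. albicans and 141 ± 23.1 CPM in control colon (SD, n = 3 each). Its estimates had opposite signs, log2 -1.001 ± 0.29 for C. tropicalis (adjusted p = 0.223) and 0.49 ± 0.25 for C. albicans (adjusted p = 0.372), and C. tropicalis against C. albicans gave -1.49 ± 0.30 (adjusted p = 0.0646). Nr1d2, which encodes REV-ERBβ, was above every control with either species without passing. It was at log2 0.50 ± 0.21 with C. tropicalis (adjusted p = 0.313) and 0.71 ± 0.19 with C. albicans (adjusted p = 0.203).

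Among the output bZIP factors, 4 of 4 were tested and 0 passed, with medians of log2 -0.06 for C. tropicalis and 1.37 for C. albicans against control. Dbp, an E-box gene whose product binds D-boxes, averaged 39.1 ± 13.6 CPM in C. tropicalis (SD, n = 2), 169 ± 8.43 CPM in C. albicans and 42.1 ± 18.2 CPM in control colon (SD, n = 3 each). It thus lay 4.01-fold above control with C. albicans (log2 2.004 ± 0.31, adjusted p = 0.0711) but not with C. tropicalis (-0.11 ± 0.34, adjusted p = 0.898), and C. tropicalis against C. albicans gave -2.11 ± 0.36 (adjusted p = 0.0646). Hlf had the same form, at 6.74 ± 0.968, 18.1 ± 5.72 and 6.79 ± 3.04 CPM in C. tropicalis, C. albicans and control colon (log2 -1.42 ± 0.41 for C. tropicalis against C. albicans, adjusted p = 0.0928). Tef was high with either species, at 166 ± 23.4 CPM in C. tropicalis and 188 ± 8.86 CPM in C. albicans against 74.9 ± 19.7 CPM in control colon (log2 1.14 ± 0.21 with C. tropicalis, adjusted p = 0.135, and 1.32 ± 0.20 with C. albicans, adjusted p = 0.0711). Nfil3, which competes for D-boxes as a repressor, was at log2 -0.70 ± 0.31 with C. tropicalis (adjusted p = 0.332).

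The paralogs and feedback partners had 5 of 5 genes tested, with medians of log2 0.36 for C. tropicalis and 0.80 for C. albicans against control. Bhlhe40, an E-box repressor, was at log2 0.73 ± 0.15 with C. tropicalis (adjusted p = 0.137) and 0.80 ± 0.13 with C. albicans (adjusted p = 0.0914). Usp2 was at 1.505 ± 0.26 with C. tropicalis (adjusted p = 0.119) and 1.37 ± 0.24 with C. albicans (adjusted p = 0.103). Between the species, Bhlhe41 was at -1.34 ± 0.28 (adjusted p = 0.0658) and Timeless at 0.78 ± 0.24 (adjusted p = 0.102) for C. tropicalis against C. albicans. The kinases and ubiquitin ligases that mark PER and CRY for decay (10 of 11 tested) stayed close to the rest of the transcriptome, with medians of log2 0.10 for C. tropicalis and -0.02 for C. albicans against control. Csnk2b, a subunit of a clock kinase, was at 0.36 ± 0.15 with C. tropicalis (adjusted p = 0.310), and Csnk1e, which phosphorylates PER, at 0.34 ± 0.13 with C. albicans (adjusted p = 0.288). For C. tropicalis against C. albicans, Csnk1e was at -0.23 ± 0.15 (adjusted p = 0.393) and Fbxw11 at 0.24 ± 0.16 (adjusted p = 0.404).

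The coregulators (10 of 10 tested) had medians of log2 0.10 for C. tropicalis and 0.07 for C. albicans against control. Sfpq, which encodes a partner of PER complexes, stood apart at log2 0.81 ± 0.16 with C. tropicalis (adjusted p = 0.137) and 0.80 ± 0.15 with C. albicans (adjusted p = 0.114). Ep300 was at 0.41 ± 0.19 with C. tropicalis (adjusted p = 0.333) and at 0.32 ± 0.19 against C. albicans (adjusted p = 0.353), and Nono was at -0.23 ± 0.11 with C. albicans (adjusted p = 0.346) and at 0.23 ± 0.12 for C. tropicalis against C. albicans (adjusted p = 0.285).

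Per1 and Per2 can also be induced by glucocorticoids and by heat shock factors, so genes of these responses were set beside them. Of 8 glucocorticoid-responsive genes 0 passed, with medians of log2 -0.11 for C. tropicalis and 0.27 for C. albicans. Sgk1 was below control with either species without passing (-0.51 ± 0.19 with C. tropicalis, adjusted p = 0.272, and -0.63 ± 0.17 with C. albicans, adjusted p = 0.203), Tsc22d3 was at 0.63 ± 0.20 with C. tropicalis (adjusted p = 0.242) and Klf9 at 0.68 ± 0.23 with C. albicans (adjusted p = 0.259). For C. tropicalis against C. albicans, Cdkn1a was at -0.54 ± 0.18 (adjusted p = 0.118) and Fkbp5 at -0.73 ± 0.28 (adjusted p = 0.171). Of 9 heat shock genes, 1 passed in each colonization comparison: Hspa8 with C. tropicalis (log2 1.80 ± 0.21, adjusted p = 0.0409) and Hsph1 with C. albicans (2.48 ± 0.28, adjusted p = 0.0227). Among all tested genes 0.0310% and 0.0435% passed. Others were above every control without passing, such as Hsph1 with C. tropicalis (2.20 ± 0.29, adjusted p = 0.0829). With C. albicans, Hspa8 (1.22 ± 0.19) and Hspa1a (3.36 ± 0.47) were too (adjusted p = 0.0711 each). Hspb1 was below every control with C. tropicalis (-1.46 ± 0.34, adjusted p = 0.168). By estimate the list lay above control in 8 of 9 genes with C. tropicalis (median 1.45) and in 9 of 9 with C. albicans (median 0.85). Of all 16107 tested genes 7720 and 7762 did. Without overlap, 6 and 5 of the 9 were above every control, as were 16.0% and 9.82% of all tested genes. With C. albicans, Hsp90aa1, Hspd1, Hspe1 and Hspb1 overlapped control. Between the species, Hspb1 (-2.08 ± 0.35, adjusted p = 0.0646) and Hspa1a (-1.89 ± 0.51, adjusted p = 0.0810) were below C. albicans without passing. Hspa1a has a near-identical copy, Hspa1b, so reads could be split between them. The part of these responses in the Per1 and Per2 values was not tested.

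**Figure D5:**
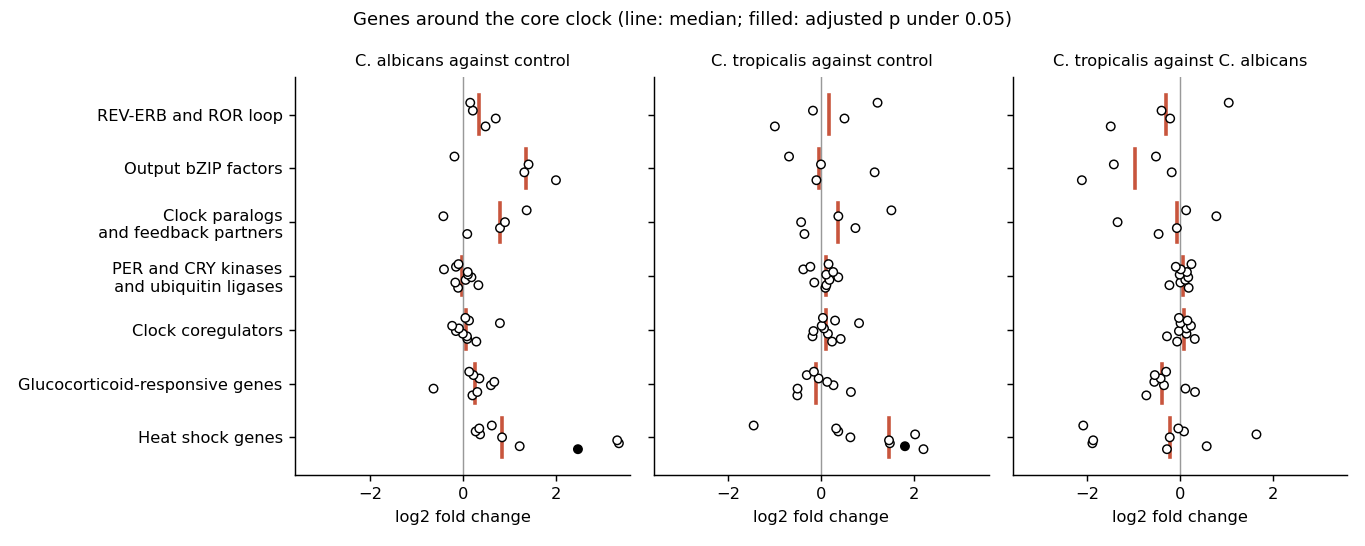
Fitted log2 fold changes of the genes around the core clock in the 3 comparisons, grouped by list (points are genes, red lines medians, filled points adjusted p under 0.05). Kinases, ligases and most coregulators lay near 0, while Dbp (2.004) and Hlf (1.41) lay above control with C. albicans and near 0 with C. tropicalis.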

How the data were processed

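Colon RNA from 8 libraries (C. tropicalis 2, C. albicans 3, control 3) was counted per gene. The deposited table holds the authors' whole-number counts, not normalized. Per the submitters' processing notes TopHat2 2.0.12, HTSeq (the notes write 6.1), DESeq 1.18.0 and build mm10 belong to the pipeline; its annotation release and strand setting were not given in the sources used here. The library kit, per the labels' protocols, was NEBNext Ultra, which keeps no strand, so reads of a gene and its antisense partner cannot be told apart. Symbols, positions and exon lengths came from GENCODE M21 (GRCm38), which held 52489 of the 52636 identifiers.

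The test on counts was that of edgeR 4.0.16 (R 4.3.3): TMM, filterByExpr (16107 genes tested), 1 quasi-likelihood fit of the 8 libraries with 5 residual degrees of freedom, and Benjamini-Hochberg adjustment over all tested genes at 0.05. Levels are CPM on TMM-scaled library sizes, and log2 CPM used a prior count of 2. Standard errors are the log2 fold change over the square root of F. No 2 libraries of a group agreed within sampling noise. Replicate numbers were not treated as pairs. Alternatives were DESeq2 1.42.0, limma-voom (3.58.1), other scalings and filters, a fit of 2 groups, a replicate block, a smooth muscle covariate and each library left out.

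The genes and lists were chosen with earlier results of these data known. All 9 clock genes are named; of each other list the members past the threshold are named or, where there were none in a comparison, the 2 with the smallest p. Some genes that this rule names are not reported here. For likeness the 5 nearest genes with a mean of at least 1 CPM are named, leaving out predicted and Rik genes, pseudogenes and receptor segments.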

Additional observations from a re-analysis of the deposited data

Results flagged for a closer look

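Clock stood on opposite sides of all controls in the colonized groups: the C. tropicalis libraries (46.4 and 49.5 CPM) were above every control and the C. albicans libraries (28.0 to 37.7 CPM) below every control. The edgeR contrast of C. tropicalis against C. albicans gave log2 0.58 ± 0.15 (adjusted p = 0.0745; 0.0233 to 0.813 over the alternatives), so the difference did not pass. With adjustment for the smooth muscle score, which does not overlap between the species, it was 0.27.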

How the results depend on the processing

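Over the 17 alternatives the 9 genes kept their direction in both comparisons with control. Called clock genes for C. albicans against control (4) ranged from 0 to 6 with a library left out, and were 0 with the replicate block, 6 each with DESeq2 and with low counts kept (Npas2 and Per3 added), and 5 with adjustment for the smooth muscle score (Per3 added). For C. tropicalis against control (1) they ranged from 0 to 4 with a library left out, and were 7 with DESeq2, 4 when low counts were not filtered, and 0 with the replicate block, with adjustment for the smooth muscle score and with only the 2 groups compared. For C. tropicalis against C. albicans (0) they ranged from 0 to 2 with a library left out, and were 4 with DESeq2 and 2 each without that filter and with only the 2 groups. Calls lost or gained when a library was left out are named in the text; the cause was not tested.

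Signs reversed only between the species. With adjustment for the smooth muscle score, which does not overlap between the species, Npas2 was at -0.35, Per3 at -0.36 and Cry2 at -0.0205. With a library left out, Npas2 ranged from -0.0072 to 0.49 and Per3 from -0.23 to 0.32; the negative values were those of both genes without C. tropicalis 1 and of Per3 without C. albicans 2 (-0.03).

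Replicate numbers are not stated to pair the libraries. Across genes, deviations of same-numbered libraries correlated from -0.39 to -0.08 for C. albicans and control, where 0 of 3 C. albicans libraries matched their own number best, from -0.02 to 0.03 for C. tropicalis and control (2 pairs), and from 0.147 to 0.156 for C. tropicalis and C. albicans (2 pairs). In the block fit the smallest adjusted p of a clock gene against control was 0.110, for Arntl with C. albicans.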
